A study of Mus musculus with 6 samples.

Results

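A set of 10 genes typical of the stomach, 9 of its epithelium and *Barx1* of its mesenchyme, namely *Sox2*, *Ctse*, *Cldn18*, *Muc1*, *Dpcr1*, *Gkn1*, *Pgc*, *Tff1*, *Tff2* and *Barx1*, was followed in epithelial cells of the mouse small intestine on day 13.5 of embryonic development (E13.5). The genes were taken by symbol from a fixed list, and all 10 are among the 23366 genes of the count tables. They were chosen by their counts in the mutant against the wild type libraries, with that difference already known, so the values of its members are given as a description and carry no p-value. The mutant embryos were *Shh*-cre-egfp:*Tcf7l1* lox/lox, in which Cre is driven from the *Shh* locus in the gut epithelium and removes an exon of *Tcf7l1*, a transcriptional repressor of the WNT pathway. The controls were labelled wild type, and no group carried Cre with *Tcf7l1* intact. Neither group received a treatment. Each group had 3 libraries, described as biological replicates, and each library was made from 500 living EpCAM-positive cells sorted from dissociated small intestine. Whether a library came from 1 embryo or from several is not given in the sources used here.

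The stomach and the intestine arise from neighbouring stretches of the gut tube. The transcription factor SOX2 marks the foregut and the stomach epithelium, and CDX2 marks the intestine, where it is known to keep gastric genes silent. The homeobox gene *Barx1* acts in the mesenchyme of the developing stomach rather than in its epithelium. The other members encode products of the gastric lining: the tight junction protein claudin 18, the membrane mucin MUC1, the mucin-like protein of *Dpcr1* (also named *Mucl3*), the aspartic proteases cathepsin E (*Ctse*) and pepsinogen C (*Pgc*), gastrokine 1, and the trefoil peptides TFF1 and TFF2, which are secreted with gastric mucus.

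The deposited values were counts of uniquely mapping reads, with totals of 18216537 to 20397278 in the 6 libraries. Counts were scaled by edgeR's TMM method, which corrects for library size and composition, and are given below as normalized counts. Of all genes, 12501 passed edgeR's filter on low counts and were tested between the groups. The target itself, *Tcf7l1*, had 476, 474 and 364 normalized counts in wild type 1, 2 and 3, against 41.4, 33.0 and 73.0 in mutant 1, 2 and 3. *Shh*, whose locus carries Cre, had a mean of 481 ± 65.8 (SD, n = 3) in wild type and 198 ± 22.6 in the mutants. The sex-linked genes also followed the groups. *Xist* had 0 counts in the wild type libraries and 237 to 452 normalized counts in the mutant libraries, and the Y-linked *Ddx3y* had 1746 to 2114 in wild type and 0 in the mutants. The loss of *Tcf7l1*, the Cre allele and the sex of the embryos therefore cannot be told apart as sources of any difference given here. Of the 10 genes, 0 lie on chromosome X or Y. In bulk libraries, fewer cells that express a gene and less of its RNA in each cell also cannot be told apart.

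Of the 10 genes, 8 passed the filter on low counts, and *Sox2* and *Tff1* did not. A gene was called where its adjusted p was under 0.01, its log2 fold change (log2FC) was 0.5 or more in size, and its normalized counts averaged 50 or more. By this rule *Ctse*, *Cldn18*, *Muc1* and *Dpcr1*, 4 of the 10, were called lower in the mutants and 0 were called higher, where 5.83% of all tested genes were called lower and 2.78% higher. The mutant libraries had fewer normalized counts than every wild type library for 6 of the 8 that passed the filter, against 22.2% of all tested genes. At an adjusted p under 0.05 and with no other condition, 6 were lower and 0 higher, against 15.1% and 13.6% of all tested genes. Since the list was chosen with this difference known, nothing is read from these shares. The summed level of the 10 genes was 98.4, 97.0 and 114 CPM (counts divided by the effective library size, per mega-read) in wild type 1, 2 and 3, against 18.7, 23.1 and 16.5 in mutant 1, 2 and 3. The mutant mean of 19.4 ± 3.35 CPM was 18.8% of the wild type mean of 103 ± 9.48 CPM. The groups stood far apart on this sum, but the members contributed to it very unequally.

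**Figure D1:**
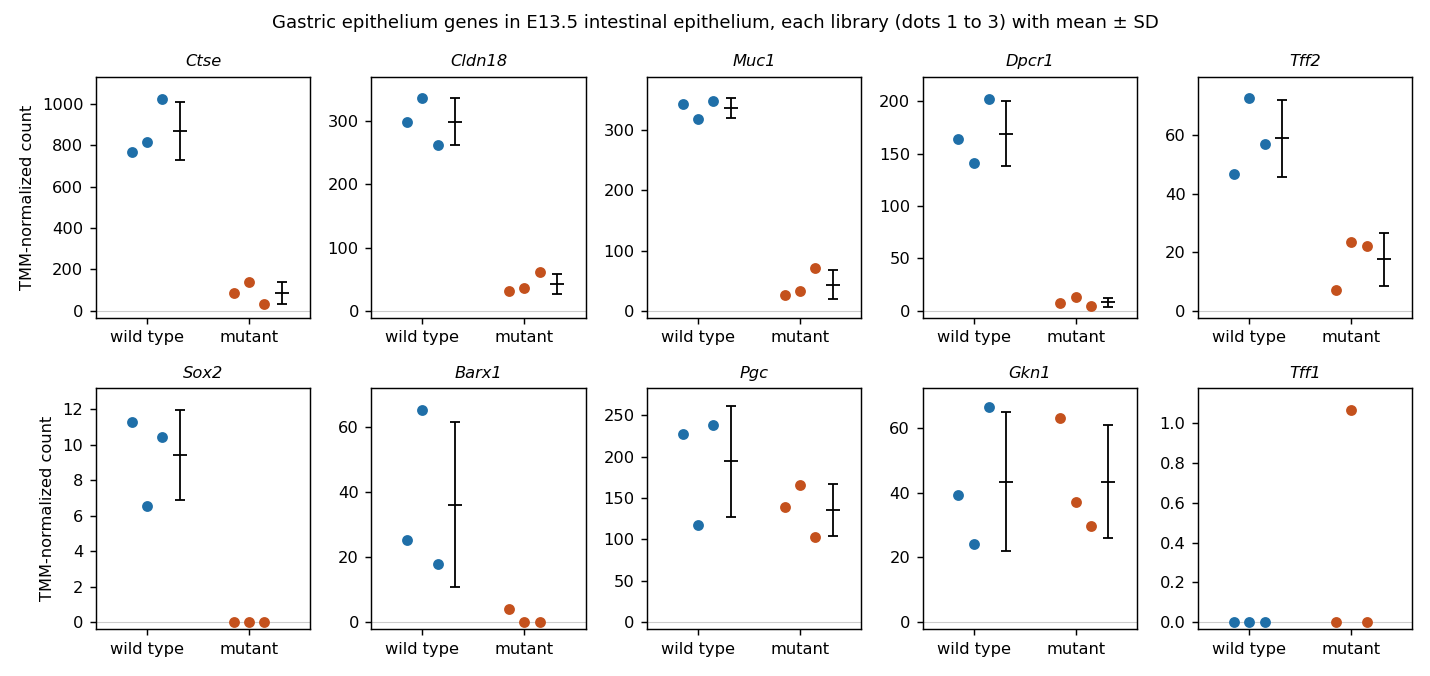
TMM-normalized counts (vertical axis, linear, a separate scale in each panel) of the 10 genes in the wild type (blue) and mutant (orange) libraries, with replicates 1, 2 and 3 from left to right and a bar for mean ± SD, left out where all values are 0 or the SD exceeds the mean. The groups are apart for *Ctse*, *Cldn18*, *Muc1*, *Dpcr1*, *Tff2*, *Sox2* and *Barx1* and overlap for *Pgc* and *Gkn1*, and *Tff1* has 1 count in all.

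The promoters of *Cldn18*, *Muc1* and *Dpcr1*, whose groups were apart, and of *Gkn1* and *Pgc*, whose groups overlapped, are shown side by side. Those of *Sox2* and *Barx1*, whose groups were also apart, are not printed. Any part of the promoter letters in the difference in response was not tested. RefSeq's promoter table for GRCm38.p6 held 8 promoters for 7 of the 10 genes, namely *Sox2*, *Cldn18*, *Muc1*, *Dpcr1*, *Gkn1*, *Pgc* and *Barx1*. The table held none for *Ctse*, *Tff1* and *Tff2*. The 250 bases before each start site matched the mm9 genome once and are given with mm9 positions, 5′ to 3′ along the gene's own strand. Capitals mark matches, on either strand, to 5 short motifs: CTTTGAT for TCF/LEF factors, ACAAAG for the HMG box that SOX and TCF proteins share, AGATAA for GATA factors, TTTATG for CDX factors and TGTTTAC for FOXA factors. *Cldn18* has a pair of start sites, and the deposited counts do not separate their transcripts.
Cldn18, downstream start site, minus strand, chr9:99610483-99610732: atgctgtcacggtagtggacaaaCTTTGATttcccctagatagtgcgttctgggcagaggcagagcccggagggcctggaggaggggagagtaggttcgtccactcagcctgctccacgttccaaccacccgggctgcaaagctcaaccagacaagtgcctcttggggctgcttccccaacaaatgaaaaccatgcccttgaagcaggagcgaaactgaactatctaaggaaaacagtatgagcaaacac
Cldn18, upstream start site, minus strand, chr9:99617687-99617936: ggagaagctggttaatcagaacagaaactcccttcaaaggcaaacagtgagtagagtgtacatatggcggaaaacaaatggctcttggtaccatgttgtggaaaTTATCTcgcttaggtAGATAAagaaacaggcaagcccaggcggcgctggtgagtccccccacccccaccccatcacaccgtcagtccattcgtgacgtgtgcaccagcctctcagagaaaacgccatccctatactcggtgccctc
Muc1, plus strand, chr3:89032728-89032977: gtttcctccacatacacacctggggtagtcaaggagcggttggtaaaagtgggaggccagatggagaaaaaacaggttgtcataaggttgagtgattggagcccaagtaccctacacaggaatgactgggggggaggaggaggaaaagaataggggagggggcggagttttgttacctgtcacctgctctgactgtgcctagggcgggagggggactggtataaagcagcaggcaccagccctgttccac
Dpcr1, minus strand, chr17:35780641-35780890: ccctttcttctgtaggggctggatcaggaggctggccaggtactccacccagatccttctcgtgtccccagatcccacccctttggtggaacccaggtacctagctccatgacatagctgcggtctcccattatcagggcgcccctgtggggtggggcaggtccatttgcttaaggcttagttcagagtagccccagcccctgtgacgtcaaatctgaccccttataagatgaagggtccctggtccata
Gkn1, minus strand, chr6:87300910-87301159: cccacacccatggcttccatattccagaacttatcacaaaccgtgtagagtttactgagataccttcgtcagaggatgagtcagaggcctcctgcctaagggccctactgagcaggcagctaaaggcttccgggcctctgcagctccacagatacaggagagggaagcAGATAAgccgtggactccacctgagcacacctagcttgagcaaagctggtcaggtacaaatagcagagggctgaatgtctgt
Pgc, plus strand, chr17:47863541-47863790: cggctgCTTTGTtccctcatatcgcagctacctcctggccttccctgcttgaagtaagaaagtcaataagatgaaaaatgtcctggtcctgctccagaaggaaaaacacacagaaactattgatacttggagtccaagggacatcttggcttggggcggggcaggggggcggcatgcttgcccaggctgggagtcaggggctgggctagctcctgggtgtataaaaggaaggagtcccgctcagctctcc

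The TCF/LEF motif occurred once, starting 227 bases before the downstream start site of *Cldn18*, and 3.21% of the 32851 promoters in the table hold it in the same window. The upstream promoter of *Cldn18* held the GATA motif at 146 and 131 bases before its start, and that of *Gkn1* held it at 82 bases, against 9.99% of all promoters. The HMG box motif stood 244 bases before the start of *Pgc* and 206 bases before that of *Sox2*, against 16.5% of all promoters. The promoters of *Muc1*, *Dpcr1* and *Barx1* held none of the 5 motifs in this window. The CDX and FOXA motifs, held by 10.8% and 3.17% of all promoters, occurred in none of the 8. These matches describe the letters only, and no binding was measured.

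*Ctse* (ENSMUSG00000004552, chromosome 1, 133534883 to 133572080 of mm9, plus strand) encodes an intracellular aspartic protease of surface mucous cells and was the most highly expressed member in wild type. It had 765, 814 and 1026 normalized counts in wild type 1, 2 and 3, against 88.0, 141 and 31.0 in mutant 1, 2 and 3. Every mutant library lay far below every wild type library, and the mutants spread 4.54-fold among themselves against 1.34-fold in wild type. The means were 868 ± 138 and 86.5 ± 54.8 (log2FC -3.32 ± 0.31 SE), and the mutants kept 10.1% of what wild type had (exact 95% interval of the counts, 8.79% to 11.5%). Such counting intervals treat reads as independent, which PCR reads without molecular identifiers are not, and leave out the spread between libraries. The share was 6.97% without mutant 2 and 13.1% without mutant 3, both outside the interval.

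*Cldn18* (ENSMUSG00000032473, chromosome 9, 99589880 to 99617686, minus strand) encodes a tight junction protein of the stomach and the lung. Its normalized counts were 299, 337 and 262 in wild type 1, 2 and 3, against 31.1, 36.2 and 60.8 in mutant 1, 2 and 3. The groups did not overlap, and mutant 3 was the highest of the mutants. The mean went from 299 ± 37.1 in wild type to 42.7 ± 15.9 in the mutants (log2FC -2.81 ± 0.26 SE), or 14.1% of wild type (counting interval 11.6% to 17.1%). Without mutant 3 the share was 11.2%, outside that interval. All 5 lung markers examined, *Nkx2-1*, *Sftpc*, *Sftpa1*, *Sftpb* and *Scgb1a1*, had 0 counts in all 6 libraries.

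*Muc1* (ENSMUSG00000042784, chromosome 3, 89032979 to 89037303, plus strand), whose mucin spans the apical membrane, was the steadiest member in wild type. It had 344, 318 and 348 normalized counts in wild type 1, 2 and 3, a coefficient of variation of 4.85%, and 25.9, 33.0 and 70.8 in mutant 1, 2 and 3. As for *Cldn18*, mutant 3 was the highest of the mutants and still well below wild type. The means were 337 ± 16.3 and 43.2 ± 24.1 (log2FC -2.96 ± 0.29 SE), and the mutant share was 12.7% (counting interval 10.4% to 15.3%). Without mutant 3 the share was 8.74%, outside that interval.

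*Dpcr1* (ENSMUSG00000073408, chromosome 17, 35772697 to 35780640, minus strand) was the lowest, relative to wild type, of the 4 members that were called. It had 164, 141 and 202 normalized counts in wild type 1, 2 and 3, against 7.25, 12.8 and 4.42 in mutant 1, 2 and 3. The mutant libraries held 23 counts in all against 539 in wild type, a share of 4.85% (counting interval 3.05% to 7.35%). The log2 fold change was -4.35 (SE 0.39). The opposite-strand gene *Sfta2* overlaps *Dpcr1* but shares 0 exon bases with it, and had 25.7 normalized counts in wild type and 19.6 in the mutants (log2FC -0.39, adjusted p = 0.622 by edgeR).

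Among the mutants the order of the libraries differed between these genes. Mutant 3 was the lowest mutant for *Ctse* and *Dpcr1* and the highest for *Cldn18* and *Muc1*. Mutant 2 was the highest of the mutants for 4 of the 8 tested members and the single lowest for 0, sharing 0 counts of *Barx1* with mutant 3. In wild type, library 3 was the highest for 5 of the 8 and library 1 for 0. No library was thus the highest or the lowest of its group for all of these genes.

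*Tff2* (ENSMUSG00000024028, chromosome 17, 31277994 to 31281227, minus strand) encodes the trefoil peptide of mucous neck cells. It had 46.9, 72.7 and 57.0 normalized counts in wild type 1, 2 and 3, against 7.25, 23.4 and 22.1 in mutant 1, 2 and 3. The groups were apart, at 29.6% of the wild type level (counting interval 21.2% to 40.7%) and a log2 fold change of -1.74 (SE 0.50). Its mean of 38.2 normalized counts over the 6 libraries was under the 50 that a call requires. *Tff1* (ENSMUSG00000024032, chromosome 17, 31298341 to 31301998, minus strand), a peptide of gastric pit cells, had 1 count in mutant 2 and 0 in the other libraries, so no difference was detectable at this depth. *Tff3*, the intestinal trefoil gene and the third of this gene cluster, lies 11403 bases from *Tff2* and had 103 ± 18.4 in wild type and 86.9 ± 18.02 in the mutants (log2FC -0.25 ± 0.28 SE at an adjusted p of 0.546).

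*Sox2* (ENSMUSG00000074637, chromosome 3, 34548927 to 34551383, plus strand) was detected at the edge of the depth. It had 12, 7 and 11 counts in wild type 1, 2 and 3, against 0 in each mutant library. With a floor of 3 counts put in place of 0 over the mutant libraries together, *Sox2* was 8.80-fold lower in the mutants. The figure was 5.78-fold without mutant 1 and 5.86-fold without mutant 2. With the mutants at 0 and the floor fixed, these lower figures follow from the smaller summed depth alone. Such figures depend on the floor chosen, leave out the spread between libraries and are not minimum folds. *Sox2* has a single exon and lies within an intron of the noncoding gene *Sox2ot* on the same strand. The counts of *Sox2ot* were 0 in all libraries but mutant 3, which had 9. *Sox21*, another SOX gene of the foregut, had 19, 30 and 30 counts in wild type 1, 2 and 3, against 0, 2 and 4 in mutant 1, 2 and 3 (log2FC -3.45 ± 0.85 SE at an adjusted p of 0.00686), and was not called for its low mean.

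*Barx1* (ENSMUSG00000021381, chromosome 13, 48758367 to 48761876, plus strand) had 27, 70 and 19 counts in wild type 1, 2 and 3, against 4, 0 and 0 in mutant 1, 2 and 3. Wild type 2 alone held most of its counts, and the groups did not overlap. The mutants held 3.92% of the wild type level (counting interval 1.05% to 10.3%), 6.56% without wild type 2 and 5.89% without mutant 2. Without mutant 1 the mutants were at 0, or 22.3-fold lower with the same floor of 3 counts as for *Sox2*. The log2 fold change was -4.56 (SE 0.97), and the mean of 18.8 normalized counts was too low for a call.

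Markers of stomach mesenchyme, where *Barx1* acts, were read in the same libraries. Their sum over 8 genes lay between 8.76 and 17.2 CPM in wild type and between 3.12 and 3.66 CPM in the mutants. *Sfrp1* and *Sfrp2*, which encode secreted WNT antagonists, had 64.8 ± 33.4 and 85.0 ± 29.8 normalized counts in wild type and 10.4 ± 16.1 and 37.1 ± 7.82 in the mutants (adjusted p = 0.0277 and 0.0267 by edgeR). *Isl1* had 69.6 ± 54.5 in wild type and 11.2 ± 9.98 in the mutants (adjusted p = 0.0186). Wild type 1 held 140 counts of *Isl1*, against 30 and 52 in wild type 2 and 3. Without wild type 1, the highest library, the log2FC of *Isl1* went from -2.63 to -1.78 (adjusted p = 0.183). That of *Sfrp1* went from -2.61 to -5.74 without mutant 1 and to -2.11 without wild type 1 (adjusted p = 0.146). The groups did not overlap for these 3 genes, the only ones of the 8 to pass the filter, against 22.2% of all tested genes, and 0 were called lower, against 5.83%. The defining gene *Nkx3-2* was at 0 in all libraries, and *Nkx2-5*, *Gata3* and *Six2* had at most 7 counts in any library. General mesenchyme markers, 10 genes in all, summed to between 69.9 and 83.4 CPM in wild type and between 56.5 and 88.8 CPM in the mutants, and *Vim* made up most of this. Within that list *Col3a1* was lower in the mutants (log2FC -2.21, adjusted p = 0.026) and so was *Vim* (log2FC -0.46, adjusted p = 0.0049). *Pdgfra*, which did not pass the filter, had 23, 6 and 21 counts in wild type 1, 2 and 3. In mutant 1, 2 and 3 it had 0, 0 and 1. *Col1a2*, also not tested, went the other way, with 5, 0 and 5 counts in wild type and 9, 10 and 0 in the mutants. *Acta2* and *Tagln* of smooth muscle had log2FC values of 1.52 and 1.31 (adjusted p = 0.014 and 0.026), with overlapping groups, and 0.61 and 0.65 without mutant 3 (adjusted p = 0.194 and 0.26). Which cells of the sort held the RNA of *Isl1* and the other markers was not measured. The part of mesenchymal cells in the differences of *Barx1* and of these markers was not tested.

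*Pgc* (ENSMUSG00000023987, chromosome 17, 47863791 to 47871432, plus strand), the precursor of a gastric protease, was well detected in both groups. It had 227, 117 and 239 normalized counts in wild type 1, 2 and 3, against 139, 166 and 103 in mutant 1, 2 and 3. Wild type 2 lay among the mutants, and the groups overlapped. The means were 194 ± 66.8 and 136 ± 31.7 (log2FC -0.51 ± 0.27 SE). *Gkn1* (ENSMUSG00000030050, chromosome 6, 87295647 to 87300917, minus strand), a secreted protein of surface mucous cells, had 39.4, 24.2 and 66.5 normalized counts in wild type 1, 2 and 3, against 63.2, 37.3 and 29.9 in mutant 1, 2 and 3. Both groups had a mean of 43.4 normalized counts, with an SD of 21.4 in wild type and 17.5 in the mutants (log2FC 0.00 ± 0.47 SE). For both genes the difference between the means was smaller than the wild type SD. For *Pgc* that SD rests largely on wild type 2, without which the log2FC was -0.77 and the groups did not overlap. With 1 library left out, the log2FC of *Pgc* lay between -0.77 and -0.33 and that of *Gkn1* between -0.37 and 0.46.

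**Figure D2:**
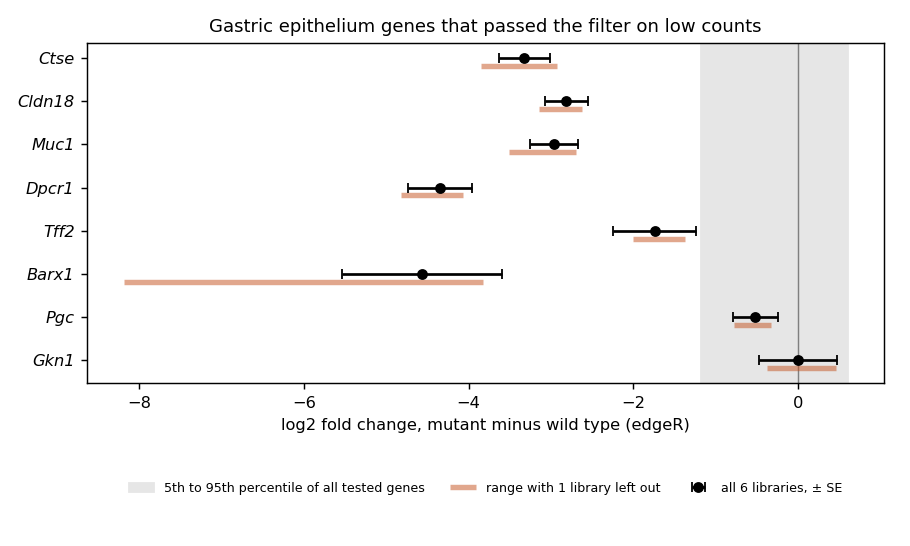
Log2 fold change of mutant against wild type (horizontal axis, edgeR) for the 8 genes that passed the filter, as points ± SE with all 6 libraries, as orange lines for the range with 1 library left out in turn, and with a grey band from the 5th to the 95th percentile of all tested genes (-1.17 to 0.61). *Ctse*, *Cldn18*, *Muc1*, *Dpcr1*, *Tff2* and *Barx1* lie to the left of the band and *Pgc* and *Gkn1* within it. The low end of the *Barx1* line is the fit without mutant 1, in which the mutants have no counts.

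The 2 other gastrokine genes had lower means in the mutants than in wild type, unlike *Gkn1*. *Gkn2* and *Gkn3* lie 22442 and 32345 bases from *Gkn1* on chromosome 6. *Gkn2* had 52.5, 40.1 and 85.5 normalized counts in wild type 1, 2 and 3, against 8.28, 13.8 and 27.7 in mutant 1, 2 and 3 (log2FC -1.84 ± 0.53 SE at an adjusted p of 0.0171). *Gkn3* had 40.3, 37.3 and 62.7 in wild type and 18.6, 14.9 and 7.74 in the mutants (log2FC -1.75 ± 0.53 SE at an adjusted p of 0.0212). Neither was called, and their groups did not overlap, while those of *Gkn1* did. The difference between these genes was itself not tested.

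Levels of different genes were compared per exon length, as reads per kilobase of exon, scaled as CPM (RPKM), with exon lengths from GENCODE vM1 on mm9. In wild type the mean was highest for *Ctse*, at 14.0 ± 2.24 RPKM, followed by *Muc1* at 7.35 ± 0.356, *Pgc* at 7.16 ± 2.46 and *Tff2* at 5.16 ± 1.14. *Cldn18* and *Dpcr1*, at 3.44 ± 0.426 and 3.32 ± 0.611 RPKM, were next. *Gkn1*, *Barx1* and *Sox2* were at 1.81 ± 0.893, 1.33 ± 0.930 and 0.196 ± 0.0527 RPKM. Of these neighbours, *Ctse* stood above *Muc1*, *Tff2* above *Cldn18*, *Dpcr1* above *Gkn1* and *Barx1* above *Sox2* in every wild type library. The ranges of *Muc1* and *Pgc*, of *Pgc* and *Tff2*, of *Cldn18* and *Dpcr1*, of *Dpcr1* and *Gkn1* and of *Gkn1* and *Barx1* overlapped. In mutant libraries *Pgc* was the highest, at 5.01 ± 1.17 RPKM, then *Gkn1* at 1.81 ± 0.729, *Tff2* at 1.54 ± 0.788 and *Ctse* at 1.40 ± 0.886. Among 15826 genes with a count and a known length, *Ctse* stood at the 73.7th percentile of wild type levels, *Muc1* at the 64.4th and *Sox2* at the 25.7th. For comparison, *Cdh17*, an adhesion gene of intestinal epithelium, had 146 RPKM in wild type.

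**Figure D3:**
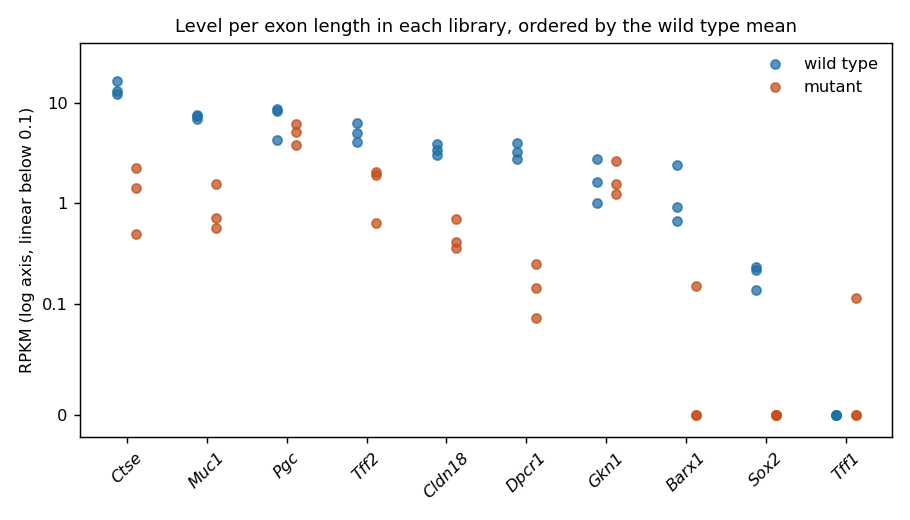
RPKM of each of the 10 genes (vertical axis, logarithmic above 0.1 and linear below) in every wild type (blue) and mutant (orange) library, ordered by the wild type mean. *Ctse* leads in wild type at 12.4 to 16.6 RPKM and *Pgc* in the mutants at 3.79 to 6.12 RPKM.

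Other genes of the gastric epithelium and foregut were taken from 3 further lists, which were also written with earlier results of these data known. Of 35 genes, 19 passed the filter, 5 were called lower and 0 higher, against 5.83% and 2.78% of all tested genes. Their median log2 fold change was -0.72, and that of all tested genes was -0.04. Among 7 tested genes of surface mucous cells, *Vsig1*, a junction protein gene of gastric epithelium on chromosome X, fell from 571 ± 80.9 to 158 ± 63.7 normalized counts (log2FC -1.85 ± 0.24 SE at an adjusted p of 4.6e-05). *Slc26a9*, a chloride channel gene 68519 bases from *Ctse*, had 7, 42 and 48 counts in wild type 1, 2 and 3, against 14, 1 and 1 in mutant 1, 2 and 3 (adjusted p = 0.0563), and its log2FC went from -2.41 to -4.66 without mutant 1 (adjusted p = 0.0138). *Anxa10* had 31.7 ± 7.99 and 14.6 ± 17.1 normalized counts (adjusted p = 0.263), with most of the mutant counts in mutant 3. Without that library its log2FC went from -1.12 to -2.71 (adjusted p = 0.0275). *Capn8* had 71.3 ± 19.7 and 43.8 ± 10.1 (adjusted p = 0.169). *Foxq1*, a forkhead factor needed for gastric mucin, had 469 ± 32.02 in wild type and 458 ± 4.73 in the mutants (log2FC -0.03 ± 0.13 SE at an adjusted p of 0.875). *Muc5ac*, the main mucin of adult surface cells, had 11 counts in wild type 1 and 0 elsewhere.

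Genes of the mature gastric glands were nearly absent. Of 14, 5 had 0 counts in all libraries, among them *Muc6* of mucous neck cells, *Lipf*, which encodes gastric lipase, and *Atp4b*, a subunit of the acid pump. The chief cell gene *Gif* and the pepsinogen gene *Pga5* had at most 2 counts in a library. The only 2 that passed the filter were *Atp4a*, the other pump subunit, with 56.0 ± 9.87 and 46.9 ± 15.0 normalized counts (adjusted p = 0.664), and *Kcnq1*, with 10.3 ± 5.62 and 18.1 ± 19.9 (adjusted p = 0.497). The summed level of this list was 3.70 ± 1.02 CPM in wild type and 3.65 ± 0.509 CPM in the mutants.

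Foregut transcription factors differed widely in response. Of 10 tested, 4 were called lower and 0 higher, against 5.83% and 2.78% of all tested genes. *Nkx6-3*, a homeobox gene of the distal stomach, fell from 500, 407 and 243 normalized counts in wild type 1, 2 and 3 to 23.8, 4.26 and 13.3 in mutant 1, 2 and 3 (log2FC -4.78 ± 0.39 SE at an adjusted p of 4.5e-07), and its log2 fold change was -5.44 without mutant 1. *Foxa2* fell from 286 ± 14.6 to 37.1 ± 17.7 (log2FC -2.94 ± 0.29 SE at an adjusted p of 3.0e-06). *Pdx1*, a homeobox gene of the antrum, duodenum and pancreas, fell from 209 ± 15.6 to 48.9 ± 7.73 (log2FC -2.09 ± 0.24 SE at an adjusted p of 1.8e-05). *Onecut2* fell by 0.72 on the log2 scale, from 2001 ± 235 to 1211 ± 157 normalized counts (adjusted p = 2.5e-04). *Foxa1* and *Foxa3* had log2 fold changes of -0.44 and -0.43, both smaller than a call asks for. *Gata4* and *Gata6*, which both stomach and intestine express, had 1941 ± 259.5 and 1099 ± 219 in wild type and 1757 ± 57.8 and 1094 ± 60.3 in the mutants (adjusted p = 0.298 and 0.974).

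**Figure D4:**
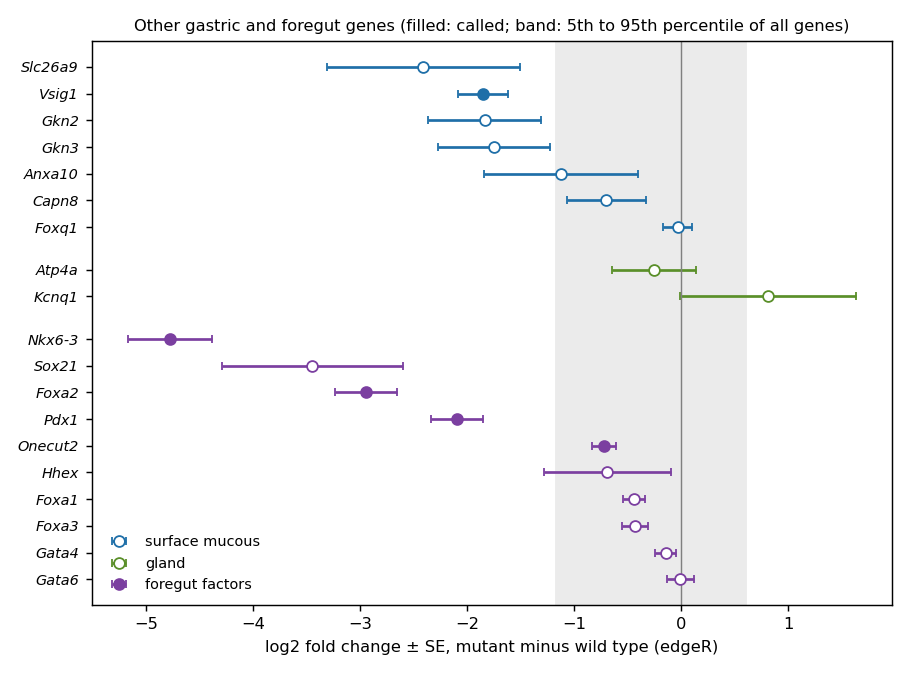
Log2 fold change ± SE of mutant against wild type (horizontal axis, edgeR) for 19 other gastric and foregut genes that passed the filter, coloured by list, filled where called, over a grey band from the 5th to the 95th percentile of all tested genes. *Vsig1*, *Nkx6-3*, *Foxa2*, *Pdx1* and *Onecut2* are the filled points, and *Kcnq1* is the one gene above 0.

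Relatives of the members by protein family showed both directions. Among aspartic proteases, *Bace2* fell from 608 ± 49.3 to 185 ± 65.2 normalized counts (log2FC -1.71 ± 0.21 SE at an adjusted p of 3.8e-05) and *Bace1* from 321 ± 56.3 to 151 ± 24.6 (log2FC -1.09 ± 0.20 SE at an adjusted p of 0.0011). The lysosomal *Ctsd* had 3607 ± 252 and 3058 ± 198 (log2FC -0.24, adjusted p = 0.0355), and *Cym*, which encodes the milk-clotting protease chymosin, had 486 ± 63.5 and 482 ± 201 (adjusted p = 0.98). Among membrane mucins, *Muc13*, the main one of intestinal epithelium, rose from 2304 ± 203 to 3979 ± 233 (log2FC 0.79 ± 0.08 SE at an adjusted p of 6.2e-06), while *Muc1* was lower. *Muc4* had 36.2 ± 26.2 and 48.9 ± 7.04 (adjusted p = 0.554).

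Genes of intestinal identity were kept in view because CDX2 and SOX2 mark neighbouring regions. *Cdx2* had 760, 958 and 669 normalized counts in wild type 1, 2 and 3, against 513, 422 and 551 in mutant 1, 2 and 3. It was called lower (log2FC -0.68 ± 0.15 SE at an adjusted p of 0.0035), and the call was lost without wild type 1, wild type 2, mutant 1 or mutant 2, where the adjusted p lay between 0.0114 and 0.0287. *Cdx1* had 1007 ± 217 and 820.2 ± 22.4 (adjusted p = 0.12). Of 12 tested intestinal genes, 2 were called higher, *Muc13* and *Cps1* (log2FC 0.61), and *Cdx2* alone was called lower, against 2.78% and 5.83% of all tested genes, with a median log2 fold change of -0.11 over the list. The epithelial marker *Epcam*, used for the sort, had 47961 to 57037 normalized counts in wild type and 60360 to 64100 in the mutants. Of 6 epithelial genes tested, 2 were called lower, *Cdh1* (log2FC -0.57, adjusted p = 0.001) and *Krt18* (log2FC -0.54, adjusted p = 2.7e-05), and 0 higher. The shares of all tested genes were 5.83% lower and 2.78% higher. *Krt19* and *Krt8* had log2FC values of -0.49 and -0.32, and *Epcam* and *Cldn7* of 0.25 and 0.24. The call of *Cdh1* was lost without wild type 2 or mutant 2 and that of *Krt18* without wild type 3 or mutant 3, each as the log2FC came under 0.5 in size. Of 9 markers of pancreas, 7 had 0 counts in all libraries. *Nkx2-2*, the one above 3 counts in any library, had 1, 37 and 42 counts in wild type 1, 2 and 3. In mutant 1, 2 and 3 it had 6, 0 and 0 counts, and the groups overlapped. The cells that held the RNA of *Nkx2-2* were not identified, so its counts are not read as traces of pancreas.

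**Figure D5:**
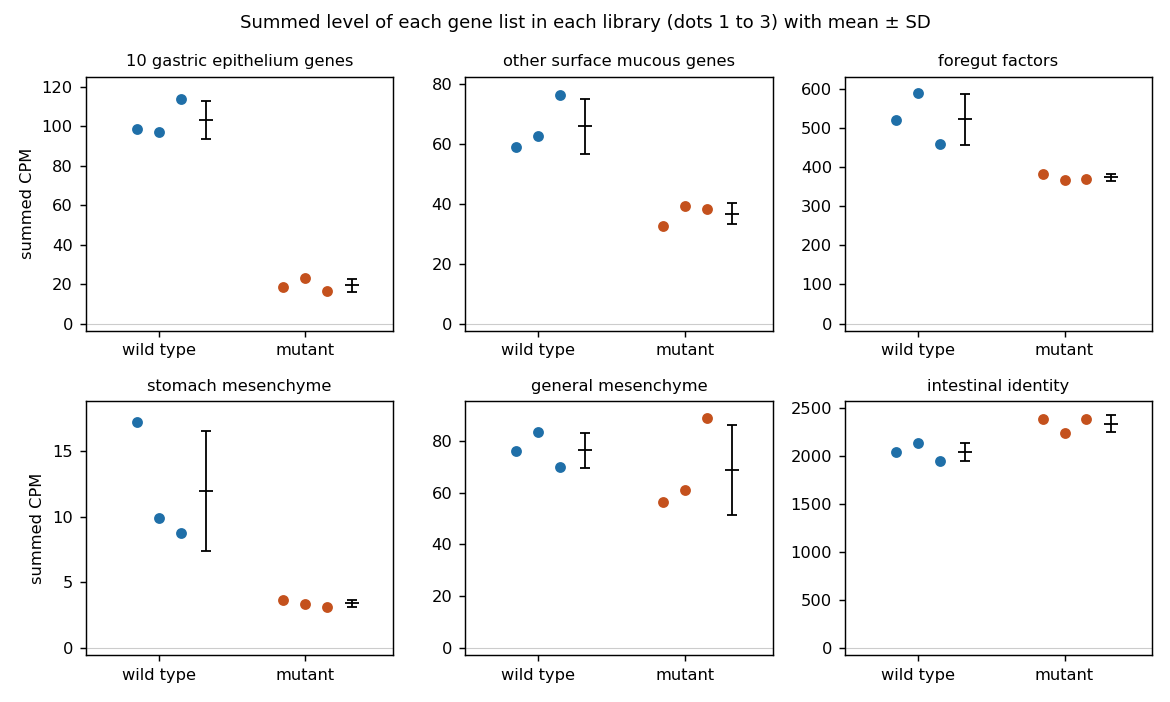
Summed CPM of 6 gene lists (vertical axis, linear, a separate scale in each panel) in the wild type (blue) and mutant (orange) libraries, with replicates 1, 2 and 3 from left to right and mean ± SD. The 10 gastric genes fall apart into 97.0 to 114 and 16.5 to 23.1 CPM, the stomach mesenchyme list into 8.76 to 17.2 and 3.12 to 3.66 CPM, and the general mesenchyme list overlaps between the groups.

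The 5 genes with the most similar pattern were sought among 10560 other tested genes with a mean of at least 50 normalized counts, by the root mean square difference of their 6 log2 CPM values from the median profile of the 8 tested members, each centred on its wild type mean. They were *Serpina1b* (0.15 on the log2 scale), *Gm13157* (0.18), *Rps3a1* (0.22), *Fam131c* (0.25) and *Scamp5* (0.28). *Serpina1b*, an antitrypsin gene, had 1461 ± 146 normalized counts in wild type and 226 ± 27.0 in the mutants, and the ribosomal protein gene *Rps3a1* had 10105 ± 1043 and 1656 ± 46.4. *Serpina1b* belongs to a family of near-identical genes and *Rps3a1* has many processed copies, so their counts of uniquely mapping reads are uncertain. Likeness was computed over 6 libraries in 2 groups.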

How the data were processed

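Epithelial cells of E13.5 mouse small intestine were sorted by EpCAM, 500 per library, and cDNA was amplified for 15 cycles (SMARTer v4 kit). The authors mapped reads to mm9 with STAR 2.5.2b, used featureCounts 1.5.1 to count the uniquely mapping ones on a UCSC gene model, and deposited raw counts, not normalized, 1 table per library. Use of strand is not given in the sources used here.

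Groups were taken from the sample titles. The test was that of edgeR 4.0.16 under R 4.3.3 (TMM, filterByExpr, quasi-likelihood test on genotype, Benjamini-Hochberg adjustment over 12501 genes). The SE is the log2 fold change divided by the square root of the F statistic. P-values rest on the spread of 3 libraries a group. Alternatives were DESeq2 1.42.0, RLE factors, library size alone, no filter, a filter at a mean count of 50, an adjusted p under 0.05 alone, a block for the replicate number, and fits that omit 1 library. The fits were tested on simulated counts. Between libraries of a group, the chi-square of the counts was at least 5.66 per gene, so none was a copy of another. Exon lengths (GENCODE vM1, mm9) were found for 94.2% of the tested genes. The members, the lists, the motifs and the tests were chosen with earlier results of these data known. The genes named are the 10 members, genes of the lists, the 5 of most similar pattern, and neighbours within 100 kb of a member, a rule added after the data were seen. Of the foregut factors, 1 is not reported here. Figures were drawn with matplotlib 3.10.9.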

Additional observations from a re-analysis of the deposited data

How the results depend on the processing

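*Ctse*, *Cldn18*, *Muc1* and *Dpcr1* were called lower in all 13 alternatives, and *Tff2* and *Barx1* as well at an adjusted p under 0.05 with no minimum fold or count. That relaxed threshold gave 1892 genes lower and 1702 higher, and 10 in place of 5 of the other gastric and foregut genes lower. Scaling by library size alone gave 7 of these lower and 200 genes in all higher, made 17.3% of the calls higher in place of 32.3%, and moved the median log2FC of all genes by -0.11, to -0.15. With 1 library left out, 405 to 867 genes were lower, the lowest numbers being 405 when wild type 1 was dropped, 406 for wild type 2 and 463 for mutant 2, and the summed member level had a log2 ratio between -2.55 and -2.30, with -2.41 for all libraries. The log2 fold change of *Muc1* was -3.51 without mutant 3. Genes near 0 changed sign: *Gata6* was at 0.0166 with DESeq2, 0.0153 with RLE factors, 0.00874 with the replicate block and between -0.10 and 0.17 with 1 library left out. *Cym* was at 0.0105 with DESeq2 and 0.00974 with RLE factors, and between -0.34 and 0.26 with 1 library left out. In the same fits *Foxq1* ranged from -0.0632 to 0.0388 and *Vil1* from -0.13 to 0.0137. *Kcnq1* and *Hhex*, at 0.81 and -0.69 with all libraries, ranged from -0.55 to 1.34 and from -1.30 to 0.24. *Kcnq1* changed sign without mutant 1, which held 39 of its 52 counts in the mutants. *Hhex* changed sign without wild type 1, which held 195 of its 299 counts in wild type. The cause was not tested. Same-numbered libraries did not deviate together (correlations from -0.04 to 0.01), so the numbers do not pair them. With the replicate block, 691 genes were lower and 339 higher, and 4 members and 5 other gastric and foregut genes were called. Depth limits *Sox2*, *Tff1* and *Barx1*, of which the mutant libraries held 0, 1 and 4 counts.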

Other observations

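Genes next to the members were read in the same fit. Within 100 kb of the 10 genes on mm9, 42 other protein-coding genes are in the count tables and 28 were tested, of which 3 were called lower and 1 higher, against 5.83% and 2.78% of all tested genes. Of the lower genes, *Gtf2h4* and *Ddr1* lie 24035 and 37872 bases from *Dpcr1*, and *Fam189b* lies 39762 bases from *Muc1*. *Ddr1*, a collagen receptor gene, fell from 292 ± 97.8 to 125 ± 19.4 normalized counts (log2FC -1.22 ± 0.25 SE at an adjusted p of 0.0023), and was not called without wild type 1, wild type 2 or mutant 1 (adjusted p from 0.0144 to 0.0181). *Gtf2h4* (log2FC -0.55) lost its call without wild type 1 or mutant 1, and *Fam189b* (log2FC -1.19) lost it without wild type 2 or mutant 2. *Pklr*, a pyruvate kinase gene 82273 bases from *Muc1*, rose from 370.1 ± 25.9 to 871 ± 1.91 (log2FC 1.23 ± 0.12 SE at an adjusted p of 3.3e-06). *Trim46* and *Mtx1*, the genes nearest to *Muc1*, were not called, with log2 fold changes of 0.86 (adjusted p = 0.378) and 0.34 (adjusted p = 0.00456). *Ptpdc1*, 37334 bases from *Barx1*, had 59.2 in wild type and 20.4 in the mutants (adjusted p = 0.0183), and *Dzip1l*, 20205 bases from *Cldn18*, had 23.4 and 4.61 (adjusted p = 0.0238). *Frs3*, 22556 bases from *Pgc*, had 110 and 56.1 (adjusted p = 0.0289 by edgeR). Other uncalled neighbours were higher in the mutants. *Fam72a*, 98434 bases from *Ctse*, had a log2FC of 0.65 (adjusted p = 0.0187). *Krtcap2*, 12585 bases from *Muc1*, had 0.46 (adjusted p = 0.0031), and *Tomm6*, 38456 bases from *Pgc*, had 0.29 (adjusted p = 0.0183).

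Markers of the squamous lining of forestomach and oesophagus were low. *Trp63*, which defines it, had 0 counts in all libraries, and *Krt5*, *Krt14*, *Krt4* and *Krt13* had at most 8 in any library. *Krt15* fell from 82.3 ± 27.5 to 28.5 ± 3.50 normalized counts (log2FC -1.53 ± 0.39 SE at an adjusted p of 0.0083). Its call was lost with the replicate block (adjusted p = 0.0149), with any 1 of the mutant libraries left out, and without wild type 1 or wild type 2, and was kept without wild type 3.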
